A study of Mus musculus with 5 samples.

Results

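BMP and activin receptors and their co-receptors were examined in 10 genes, all of which were found among the 24100 genes of the deposited count table by their Entrez identifiers. The set was defined by name and holds 4 type I receptors (Bmpr1a, Bmpr1b, Acvr1 and Acvrl1), 3 type II receptors (Bmpr2, Acvr2a and Acvr2b) and 3 co-receptors (Eng, Rgma and Rgmb). All 10 passed the filter on low counts, although Bmpr1b did so only through the melanocyte libraries.

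Ligands of the BMP and activin family bind a pair of type I and a pair of type II receptors, and the constitutively active type II kinase phosphorylates the type I kinase. BMP type I receptors then phosphorylate SMAD1, SMAD5 and SMAD9, which enter the nucleus with SMAD4 and activate genes such as the Id family. Co-receptors bind ligand or receptors at the cell surface without a kinase of their own. In skin, BMP signaling holds hair follicle stem cells in rest and acts on cells of the pigment lineage, and the title of the series sets the data in the question of how BMP signaling separates activated melanocyte stem cells from differentiation.

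Messenger RNA was sequenced from 2 libraries of quiescent melanocyte stem cells (McSC) and 3 libraries of melanocytes, purified by cell sorting from back skin of males on a mixed CD1/C57Bl6J background. Quiescent McSC came from mice with the Dct-eGFP reporter at postnatal days 60 and 62, in the second telogen or resting phase of the hair cycle, with 4 males pooled in each library. Melanocytes came from mice with both Dct-EGFP and Lef1-RFP at postnatal day 10, in full anagen or growth phase, with 3, 2 and 4 males pooled in replicates 1, 2 and 3. Both gates took Dct-eGFP+ cells of medium to low integrin α6 that were negative for CD31, CD45, CD140a, Sca1 and CD34, and the melanocyte gate also required Lef1-RFP and c-Kit. Dct is a pigment lineage gene, so both populations were marked by the activity of its promoter. Age, hair cycle phase, reporter strain and gate changed together and cannot be told apart in any difference below. In bulk samples, fewer cells of a type and less RNA per cell cannot be told apart either.

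The quiescent McSC libraries held 67483295 (replicate 1) and 124530834 (replicate 2) counts, against 36502516, 67275054 and 17512381 in melanocyte replicates 1, 2 and 3. Levels are given as CPM, in which each count is taken relative to the TMM-scaled total of its library, so that 3 counts were worth between 0.0268 and 0.160 CPM. The 10 pigment lineage markers (3 called higher in quiescent McSC, 1 lower) summed to 19192 and 20402 CPM in the quiescent McSC libraries, against 3135, 18339 and 20045 CPM in melanocyte replicates 1, 2 and 3. The 12 fibroblast and dermal papilla markers were all called lower in quiescent McSC, where they summed to between 53.1 and 74.0 CPM, against 5715, 2249 and 2036 CPM in the melanocyte libraries. All 13 hair follicle and hair shaft markers were lower as well (23.4 to 73.8 against 3934 to 5445 CPM), as were 8 of 9 tested muscle and pericyte markers (81.2 to 84.7 against 152 to 313 CPM). The other, Cspg4, was higher and made up most of that quiescent McSC sum, at 78.8 and 75.3 CPM. It read 38.4, 30.9 and 25.7 CPM in melanocyte replicates 1, 2 and 3. Of 10 tested immune markers 6 were lower and 2, Cd68 and Cd207, higher (13.3 to 15.2 against 34.2 to 64.6 CPM). Cd68 made up most of that quiescent McSC sum, at 11.1 and 10.8 CPM, against 7.72, 5.31 and 4.49 CPM in melanocytes. Of 12 keratinocyte markers 6 were lower and 5 higher (3382 to 4616 against 4375 to 5751 CPM). The keratinocyte sums overlapped. Their 5 higher genes were Krt15, Krt10, Krt1, Krtdap and Lor, with Krt10 at 959 ± 427 against 40.6 ± 28.3 CPM. Their 6 lower genes were Krt5, Dsp, Trp63, Sfn, Perp and Dsg3, with Trp63 at 83.6 ± 8.47 against 605 ± 56.4 CPM. The part of these markers in the results below was not tested, except where a value is given.

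Bmpr1b had to differ in order to pass the filter, so it is described by its counts and left out of the counts of calls. Of the other 9 genes, 3 were called higher in quiescent McSC and 2 lower, at an adjusted p under 0.05 in edgeR's quasi-likelihood test across all genes. Eng and Acvrl1 were several times higher and Acvr2a moderately higher, whereas Acvr1 and Bmpr2 were moderately lower and Bmpr1b was close to the detection floor in both groups. Bmpr1a, Acvr2b, Rgma and Rgmb were not called. Over all genes 55.4% of those tested were called, 26.2% higher and 29.1% lower, so the 5 of 9 called among the receptor genes were near the background. The median log2 fold change (quiescent McSC minus melanocyte) was 0.25 over the 10 genes, Bmpr1b included, and -0.03 over all genes tested, and the median of its size was 0.50 over the 10 genes and 0.82 over all. The CPM of the 2 groups did not overlap in 7 of the 9 genes, against 74.5% of all tested genes.

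**Figure D1:**
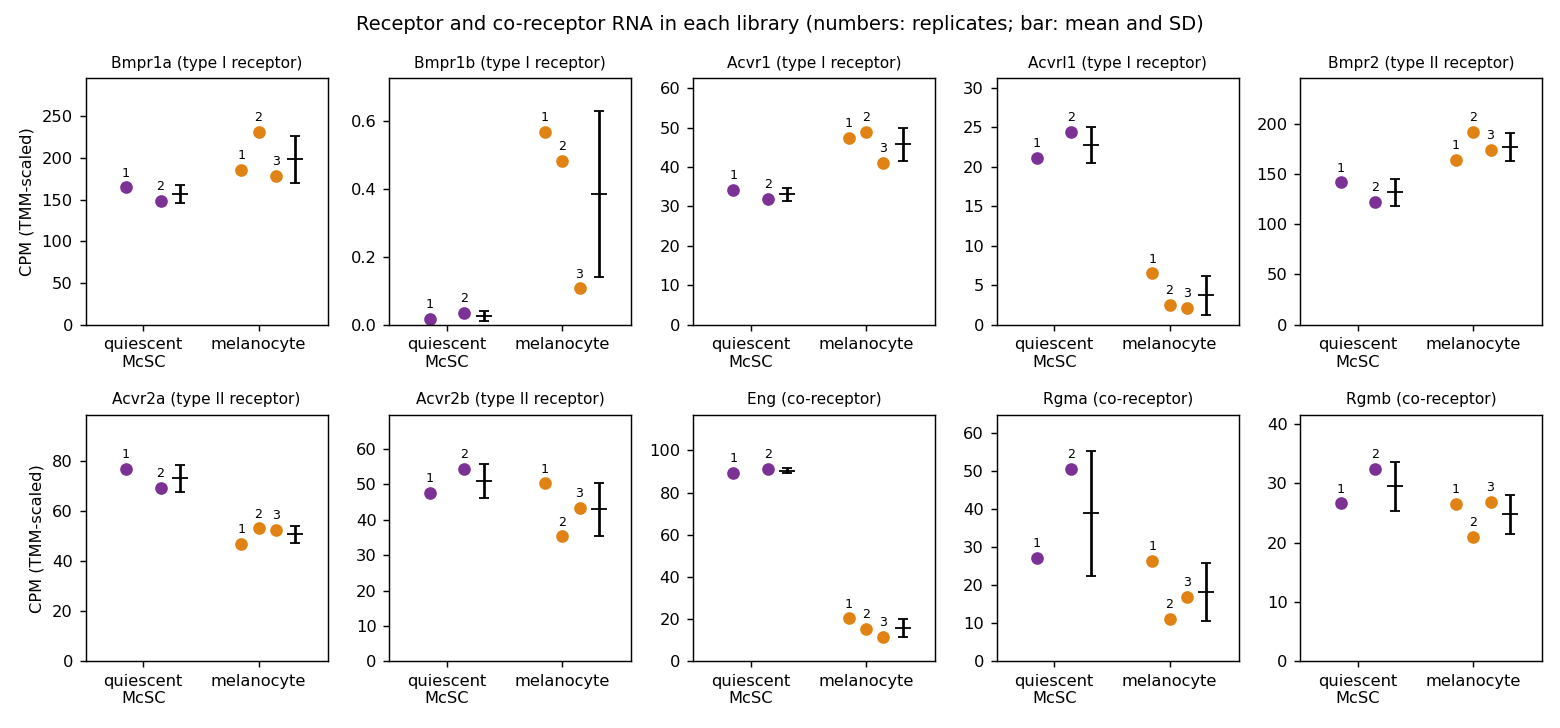
TMM-scaled CPM (vertical axes, each from 0) of the 10 genes in each library, with quiescent McSC left of melanocytes, replicate numbers over the points, and the mean with SD beside each group (n = 2 and n = 3). Eng lies at 89.5 and 91.2 CPM in quiescent McSC and between 11.7 and 20.4 CPM in melanocytes, whereas the points of Acvr2b and Rgmb overlap.

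Endoglin (Eng; chromosome 2, 32646595 to 32682669 on GRCm38) is a transmembrane co-receptor best known from blood vessel endothelium, where it presents BMP9 and BMP10 to the type I receptor ALK1. Its RNA stood at 89.5 and 91.2 CPM in quiescent McSC replicates 1 and 2, against 20.4, 15.5 and 11.7 CPM in melanocyte replicates 1, 2 and 3. The lowest quiescent McSC library thus read more than 4 times the highest melanocyte library. The fitted difference was 5.67-fold (log2 fold change 2.5 ± 0.23 SE, 95% interval 1.95 to 3.06, edgeR adjusted p = 0.000372). It was the smallest p of the 10 genes, and the call held under all 14 alternative settings, with log2 fold changes between 2.28 and 2.71.

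Acvrl1 (chromosome 15, 101128522 to 101145336) encodes ALK1, the type I receptor that works with endoglin. It read 21.1 and 24.3 CPM in quiescent McSC replicates 1 and 2, against 6.49, 2.48 and 2.14 CPM in melanocyte replicates 1, 2 and 3. The groups did not overlap, and melanocyte replicate 1 stood above the other melanocyte libraries. Quiescent McSC were 6.09-fold higher (log2 fold change 2.61 ± 0.49 SE, interval 1.41 to 3.80, edgeR adjusted p = 0.00544). The call held under all 14 alternatives, with log2 fold changes between 2.35 and 3.28, the highest without melanocyte replicate 1. Both high-affinity ligands of this receptor, Gdf2 (BMP9) and Bmp10, had 0 counts in all 5 libraries, which allows at most 0.0268 to 0.160 CPM depending on the library. These ligand genes were singled out after the receptor values were seen.

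Because Eng and Acvrl1 are classical endothelial genes, their levels were set beside 14 endothelial markers. Of these, 13 were lower in quiescent McSC and 1, Esam, was higher. The list summed to 12.5 and 13.5 CPM in quiescent McSC replicates 1 and 2, against 79.7, 82.4 and 44.4 CPM in melanocyte replicates 1, 2 and 3. Esam made up most of the quiescent McSC sum, at 8.13 and 10.5 CPM. It read 4.17, 3.42 and 2.67 CPM in melanocyte replicates 1, 2 and 3. Cldn5 and Sox17 had no count in either quiescent McSC library, and so passed the filter only through the melanocyte libraries. Cdh5 (VE-cadherin) read 0 and 0.0446 CPM in quiescent McSC, against 7.55, 11.0 and 3.10 CPM in melanocytes. Pecam1 (CD31, a marker against which both gates selected) read 0.385 and 0.50 CPM in quiescent McSC, against 10.8, 14.5 and 4.97 CPM in melanocytes. Eng and Acvrl1 were higher in the libraries in which the summed endothelial list was lower. The part of endothelial cells in their levels was not tested.

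**Figure D2:**
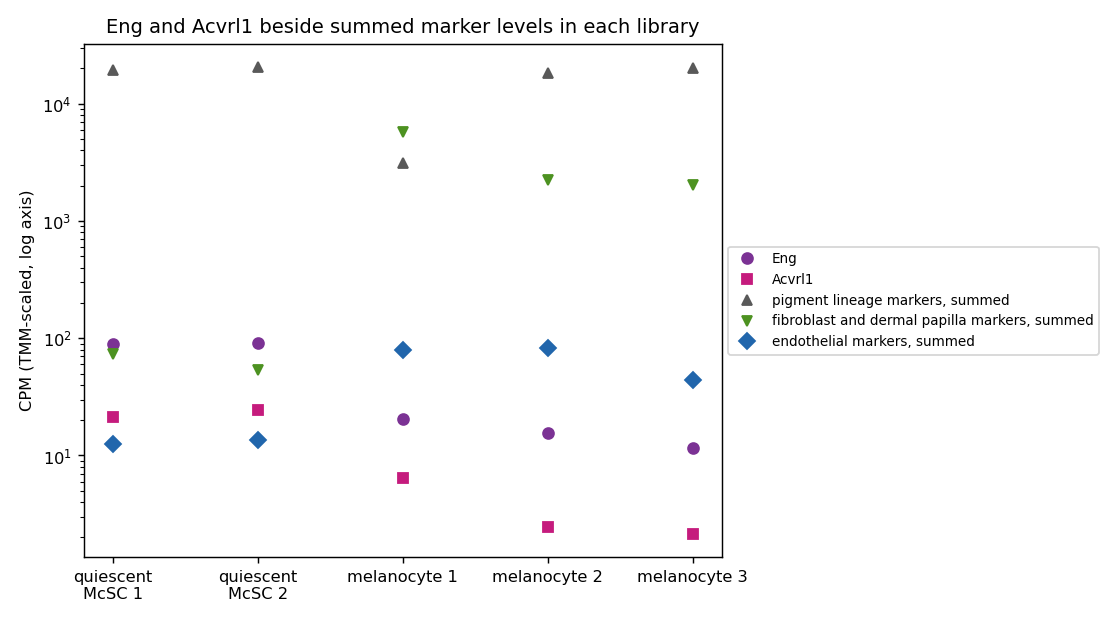
CPM on a log axis of Eng, Acvrl1 and the summed pigment lineage, fibroblast and dermal papilla, and endothelial marker lists in each library, quiescent McSC at the left. Eng and Acvrl1 are highest in the quiescent McSC libraries, where the endothelial sum is lowest (12.5 and 13.5 CPM), and melanocyte replicate 1 has the lowest pigment sum (3135 CPM) and the highest fibroblast sum (5715 CPM).

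Among the melanocyte libraries, 5 of the 10 genes (Eng, Acvrl1, Rgma, Acvr2b and Bmpr1b, the last near the floor) were highest in replicate 1. Another 2, Bmpr2 and Acvr2a, were lowest in replicate 1. The same share over all genes is not given, so the count is a description only. That library had the lowest sum of pigment markers and the highest sum of fibroblast markers of the 3 melanocyte libraries. The part of this difference between libraries in the levels of the 5 genes was not tested. Eng and Acvrl1 were called with it left out, at log2 fold changes of 2.71 and 3.28.

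The pattern of Eng across the 5 libraries was compared with the 4917 other tested genes whose mean log2 CPM lay within 1 of its own, by the root mean square (RMS) difference of centred log2 CPM. The nearest were Cav2, a caveolin (0.126), Zfp608, a zinc finger protein (0.131), and Pros1, the anticoagulant protein S (0.154). Cav2 read 102.6 and 97.7 CPM in quiescent McSC, against 19.5, 17.9 and 14.5 CPM in melanocytes. The measure rests on 5 libraries in 2 groups and is given as a description.

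Of the remaining type I receptors, Bmpr1a (chromosome 14, 34411061 to 34503336), which encodes the broadly expressed BMP receptor ALK3, was the most abundant of the class. It read 164.6 and 148.8 CPM in quiescent McSC replicates 1 and 2, against 186, 231 and 178 CPM in melanocyte replicates 1, 2 and 3. The groups did not overlap, with melanocytes higher, but the difference was not called (log2 fold change -0.34 ± 0.15 SE, interval -0.71 to 0.03, edgeR adjusted p = 0.101). It was called with library size as the only scaling, with or without the 20 most abundant genes (adjusted p = 0.014 in both), and the plain setting is one that moved the median of all genes to -0.26. Relative to that median, the log2 fold change of Bmpr1a was -0.30. Without melanocyte replicate 2 it was -0.19 (adjusted p = 0.218).

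Acvr1 (chromosome 2, 58446438 to 58566828) encodes ALK2, a type I receptor for BMPs that also binds activin A. It read 34.2 and 31.9 CPM in quiescent McSC, against 47.4, 48.8 and 41.0 CPM in melanocytes, with no overlap. Quiescent McSC were lower (log2 fold change -0.47 ± 0.13 SE, edgeR adjusted p = 0.0215). Leaving out quiescent McSC replicate 1 (adjusted p = 0.080), quiescent McSC replicate 2 (0.131) or melanocyte replicate 2 (0.0746) ended the call, at log2 fold changes of -0.52, -0.42 and -0.40.

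Bmpr1b (chromosome 3, 141837135 to 142169585), which encodes ALK6, the BMP receptor of cartilage and ovary, was at the limit of detection. It had 1 and 4 counts in quiescent McSC replicates 1 and 2, against 23, 33 and 2 counts in melanocyte replicates 1, 2 and 3. The quiescent McSC libraries together held 5 counts and the melanocyte libraries 58, a scaled ratio of melanocytes over quiescent McSC of 15.9. The ratio only describes the counts, since the gene passed the filter only through the melanocyte libraries and counts are not replicates. With melanocyte replicate 1 or 2 left out the gene no longer passed the filter, and no call is drawn from its p. Its nearest genes by pattern, out of 1841 compared, were Higd1b (RMS difference 0.147), Itgal (0.168) and Tmem255b (0.184), all below 0.7 CPM in every library.

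Among the type II receptors, Bmpr2 (chromosome 1, 59764279 to 59878081), the receptor dedicated to BMP ligands, was lower in quiescent McSC. It read 141.5 and 122.5 CPM in quiescent McSC, against 164, 191.5 and 174 CPM in melanocytes, with no overlap (log2 fold change -0.42 ± 0.13 SE, edgeR adjusted p = 0.0316). Leaving out either quiescent McSC library (adjusted p = 0.0670 for replicate 1 and 0.202 for replicate 2) ended the call, as did leaving out melanocyte replicate 2 (0.0777) or 3 (0.0678).

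Acvr2a (chromosome 2, 48814109 to 48903264), an activin receptor that also binds BMPs, differed in the opposite direction. It read 76.7 and 69.1 CPM in quiescent McSC, against 46.7, 53.0 and 52.3 CPM in melanocytes. The lowest quiescent McSC library lay above all melanocyte libraries (1.44-fold, log2 fold change 0.52 ± 0.11 SE, edgeR adjusted p = 0.00888). The call ended when quiescent McSC replicate 1 was left out (adjusted p = 0.0721). Its close relative Acvr2b (chromosome 9, 119401583 to 119442148) read 47.5 and 54.3 CPM in quiescent McSC, against 50.2, 35.3 and 43.3 CPM in melanocytes. Those groups overlapped, and a difference was not shown (log2 fold change 0.25, interval -0.17 to 0.67, edgeR adjusted p = 0.266).

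The labels do not say whether strand was kept or used in counting, so reads of overlapping genes on opposite strands may have been counted together. In the GENCODE annotation, Acvr2a shared 446 of its 5686 exon bases with Orc4 on the other strand, a gene whose own difference was smaller (log2 fold change 0.30 ± 0.10 SE, edgeR adjusted p = 0.0441). Eng shared 61 of 4048 exon bases with Fpgs (0.47 ± 0.14, edgeR adjusted p = 0.0301). Bmpr1a, Acvrl1 and Rgma shared between 2.98% and 4.65% of their exon bases with antisense transcripts.

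**Figure D3:**
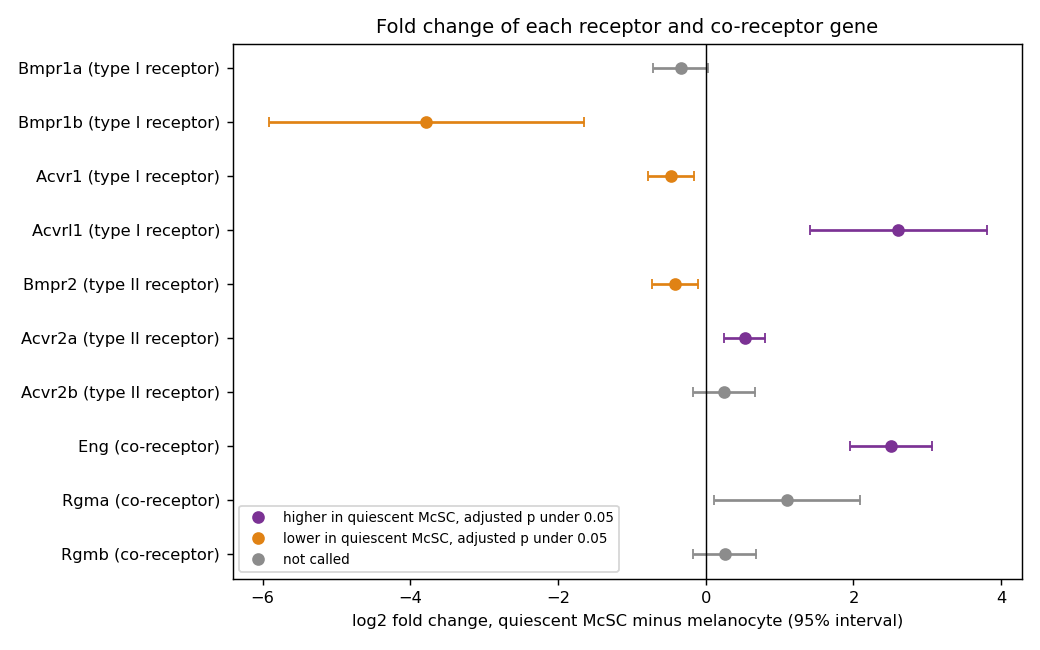
Log2 fold change of each gene (horizontal axis, quiescent McSC minus melanocyte) with its 95% interval from the fit across all genes; colors give the call at an adjusted p under 0.05. Eng (2.5) and Acvrl1 (2.61) lie far to the right of 0, Acvr2a, Acvr1 and Bmpr2 lie within 0.6 of it, and the interval of Bmpr1b, which passed the filter only through the melanocyte libraries, is the widest. No call is drawn from the color of Bmpr1b.

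The remaining co-receptors belong to the repulsive guidance molecule family, which are membrane-anchored proteins that bind BMP2 and BMP4 and also bind the receptor neogenin. Rgma (chromosome 7, 73375520 to 73419899) read 27.3 and 50.6 CPM in quiescent McSC replicates 1 and 2, against 26.5, 11.2 and 16.9 CPM in melanocyte replicates 1, 2 and 3. It varied widely inside both groups, and its lowest quiescent McSC value lay just above its highest melanocyte value. The difference was not called (log2 fold change 1.10 ± 0.41 SE, interval 0.11 to 2.09, edgeR adjusted p = 0.0608). Without melanocyte replicate 1 it was called (log2 fold change 1.48, adjusted p = 0.00663), as it was by DESeq2 (0.0210) and limma-voom (0.0390), and with no filter on low counts (0.0499). Without quiescent McSC replicate 2 the log2 fold change was 0.59 (adjusted p = 0.373), and scaled by library size alone it was 0.85 (0.143).

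Rgmb (chromosome 17, 15804661 to 15831246) read 26.6 and 32.4 CPM in quiescent McSC, against 26.6, 21.0 and 26.8 CPM in melanocytes. Its groups overlapped (log2 fold change 0.25, interval -0.17 to 0.67, edgeR adjusted p = 0.254). Neo1, the gene of neogenin, was lower in quiescent McSC, at 207.6 ± 4.33 CPM, against 353 ± 19.9 CPM in melanocytes (SD, n = 2 and n = 3; log2 fold change -0.77 ± 0.12 SE, edgeR adjusted p = 0.00275).

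Levels of the 10 genes were compared with each other per kilobase of exon, on the union of GENCODE basic exons. On this scale Bmpr1a and Eng led in quiescent McSC, at 25.9 ± 1.85 and 25.3 ± 0.331 CPM per kb (SD, n = 2), and their libraries overlapped. Acvr2b (14.2), Acvr2a (12.8), Rgma (10.4) and Bmpr2 (10.2) followed, each overlapping the next, and then Acvr1 (9.11), Acvrl1 (5.99), Rgmb (4.2) and Bmpr1b (0.0044), none of which overlapped the gene before it. In melanocytes Bmpr1a stood alone at 32.8 ± 4.68 CPM per kb (SD, n = 3), above all other members. Bmpr2 (13.7), Acvr1 (12.6) and Acvr2b (12) each overlapped the next, and Acvr2a (8.91) came after them without overlap. Rgma (4.86), Eng (4.44) and Rgmb (3.53) formed a further run in which each overlapped the next, followed by Acvrl1 (0.975) and Bmpr1b (0.0663). Eng therefore stood second of the 10 genes in quiescent McSC and seventh in melanocytes. With the longest coding transcript as the length, Eng (26.4) and Bmpr1a (26.3) changed places in quiescent McSC and Acvr1 (13.9) and Bmpr2 (13.7) in melanocytes, each within the spread of their libraries. On that length Bmpr2 also overlapped Acvr1 in quiescent McSC, and Acvr2b did not overlap Acvr2a there. On either length the wide range of Rgma in quiescent McSC took in that of Acvr1.

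The share of a gene in the counts of its own class needs no scaling between libraries. Shares of a class are tied to each other, however, since a larger share of 1 gene makes those of the others smaller. Acvr2a made up 28.9% and 28.1% of the type II receptor counts in quiescent McSC replicates 1 and 2, against 17.9%, 18.9% and 19.4% in melanocyte replicates 1, 2 and 3. The exact (Clopper-Pearson) 95% intervals of the quiescent McSC libraries ran from 27.6% to 29.6% and those of the melanocyte libraries from 17.2% to 20.5%. Bmpr2 made up 53.3% and 49.8% of the class in quiescent McSC, against 62.9%, 68.4% and 64.5% in melanocytes. The share of Acvr2a was thus higher and that of Bmpr2 lower in every quiescent McSC library than in every melanocyte library, whereas Acvr2b, at 17.9% and 22.1% against 19.2%, 12.6% and 16.1%, overlapped.

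Among the type I receptors, Acvrl1 held 9.61% and 11.9% of the counts in quiescent McSC, against 2.70%, 0.877% and 0.965% in melanocytes, and Bmpr1a held 74.8% and 72.5%, against 77.4%, 81.7% and 80.5%. Acvr1 averaged 15.6% in quiescent McSC, against 18.5% in melanocytes, without overlap. Eng held 62.4% and 52.3% of the co-receptor counts in quiescent McSC, against 27.8%, 32.5% and 21.0% in melanocytes. Rgma held 19.1% and 29.1%, against 36.1%, 23.5% and 30.6%, and its groups overlapped. Rgmb held 18.5% and 18.6% in quiescent McSC, against 36.2%, 43.9% and 48.4% in melanocytes. Its smaller share in quiescent McSC is not a lower level, since its CPM overlapped and its log2 fold change was 0.25. The share of Eng in the same class was larger there. The exact two-sided permutation test over the 5 libraries gave p = 0.2 for the shares of Acvr2a, Bmpr2, Acvrl1, Bmpr1a, Acvr1, Eng and Rgmb and p = 0.4 for Acvr2b and Rgma; with 2 against 3 libraries 0.2 is the smallest value it can give, so it cannot pass 0.05.

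**Figure D4:**
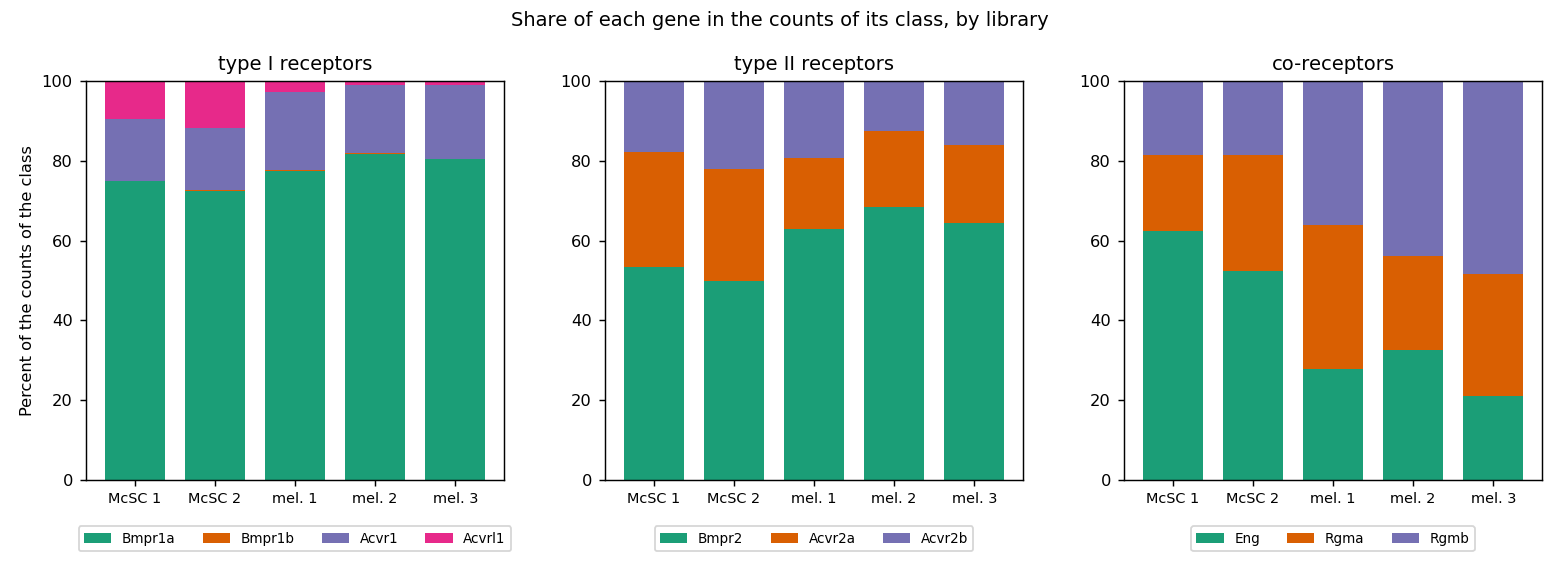
Percent of the counts of each receptor class (vertical axis, 0 to 100) that came from each gene, one stacked bar per library, quiescent McSC left of melanocytes (mel.). The Acvr2a band is wider in both quiescent McSC bars (28.9% and 28.1%) than in the melanocyte bars (17.9% to 19.4%), and the Eng band fills more than 50% of the co-receptor counts only in quiescent McSC.

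Start regions of RefSeq genes (GRCm38.p6, 250 bases before to 50 after the start) were available for 8 of the 10 genes, all but Acvrl1 and Rgma. They are shown for Eng and Acvr2a, which were both higher in quiescent McSC, for Bmpr1a, the most abundant type I receptor, and, with 1 of its 3 windows, for Bmpr1b, which was barely detected, since these windows differ in their CpG content. All 3 Bmpr1b windows lie inside the annotated gene, and none reaches its 5′ end at 142169585 on the minus strand. The Bmpr1a window also lies inside its gene, whose 5′ end is at 34503336. Sequences read 5′ to 3′ on the strand of the gene, and capitals mark CpG pairs.
Eng, chr2:32646345-32646644, plus strand: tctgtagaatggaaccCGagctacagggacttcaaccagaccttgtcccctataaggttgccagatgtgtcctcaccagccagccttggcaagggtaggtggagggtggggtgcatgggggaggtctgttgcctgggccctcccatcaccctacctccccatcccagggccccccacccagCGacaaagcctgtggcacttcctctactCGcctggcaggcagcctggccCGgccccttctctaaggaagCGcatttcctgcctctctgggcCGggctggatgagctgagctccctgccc
Acvr2a, chr2:48813859-48814158, plus strand: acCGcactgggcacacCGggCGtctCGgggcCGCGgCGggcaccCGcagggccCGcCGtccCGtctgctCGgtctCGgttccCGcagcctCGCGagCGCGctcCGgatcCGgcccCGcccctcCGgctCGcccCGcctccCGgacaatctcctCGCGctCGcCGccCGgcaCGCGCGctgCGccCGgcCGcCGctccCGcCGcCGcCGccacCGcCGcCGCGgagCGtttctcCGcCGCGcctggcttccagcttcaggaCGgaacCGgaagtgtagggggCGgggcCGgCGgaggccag
Bmpr1a, chr14:34502497-34502796, minus strand: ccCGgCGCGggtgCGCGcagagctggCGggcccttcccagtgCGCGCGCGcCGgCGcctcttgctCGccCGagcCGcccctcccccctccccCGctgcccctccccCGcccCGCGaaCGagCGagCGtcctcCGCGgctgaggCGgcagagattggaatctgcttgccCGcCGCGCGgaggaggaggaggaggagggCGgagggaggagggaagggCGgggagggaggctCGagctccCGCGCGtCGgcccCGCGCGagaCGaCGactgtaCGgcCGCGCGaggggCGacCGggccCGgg
Bmpr1b, chr3:141982215-141982514, minus strand: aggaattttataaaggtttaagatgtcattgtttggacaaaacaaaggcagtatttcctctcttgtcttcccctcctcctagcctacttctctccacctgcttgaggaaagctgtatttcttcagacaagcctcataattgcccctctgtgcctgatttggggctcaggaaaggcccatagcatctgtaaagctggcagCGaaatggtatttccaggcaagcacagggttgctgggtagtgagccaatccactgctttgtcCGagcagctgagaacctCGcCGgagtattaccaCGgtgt

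The Eng window held 6 CpG pairs at 63.3% G and C, and the Bmpr1b window shown 5 at 48.3%, whereas those of Acvr2a and Bmpr1a held 54 and 48 at 80.3% and 79.3%. The median over all 32851 windows was 7 CpG pairs and 52.7%. A GC box (GGGCGG, either strand) occurred 3 times at Acvr2a and 4 times at Bmpr1a, and in 35.66% of all windows. The GC-rich SMAD element GGCGCC occurred once at Bmpr1a and in 11.87% of all windows. The E-box letters CACGTG and CATGTG, which the pigment regulator MITF can bind, occurred at none of the 4 (7.15% and 14.15% of all windows). The 2 matches of TATAAA in the Bmpr1b window shown overlapped on opposite strands (13.62% of all windows), and the other 2 windows of the gene had 0 matches and 6 CpG pairs each. Eng had no match to any of these 5 motifs. Matches describe letters only, and the windows shown were picked for their difference in CpG content. In the other genes, windows held 51 CpG pairs at Acvr1, 27 at Acvr2b, 23 at Bmpr2, and 18, 30 and 24 at Rgmb.

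Other genes of the pathway were read from the same fit by role, and each share of calls is to be set against 26.2% higher and 29.1% lower over all genes, with a median log2 fold change of -0.03. Of the 11 other receptors and co-receptors of the family, 9 were tested, with 2 called higher in quiescent McSC, 2 lower and a median of 0.05. Acvr1b, the activin type I receptor ALK4, was lower, at 30.7 ± 0.520 CPM, against 69.6 ± 9.79 CPM in melanocytes (-1.18 ± 0.15 SE, edgeR adjusted p = 0.00111). Amhr2, the receptor of anti-Müllerian hormone, was higher at a low level, at 1.70 ± 0.314 against 0.179 ± 0.0667 CPM (3.31 ± 0.48). Leaving out either quiescent McSC library, or melanocyte replicate 2 or 3, left 1 gene called higher.

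Of 22 genes listed by name as BMP and GDF ligands 17 were tested, with 4 higher in quiescent McSC and 8 lower (median -1.66). The 8 include Bmp1 (-1.16 ± 0.30 SE), which encodes a protease and not a ligand. It is counted with the ligands here and below. Bmp7 stood at 17.8 ± 4.34 CPM in quiescent McSC, against 105 ± 10.9 CPM in melanocytes, Bmp2 at 9.41 ± 3.69 against 58.8 ± 10.9 CPM, and Bmp15, an oocyte ligand, at 9.85 ± 0.0133 against 0.674 ± 0.333 CPM. With quiescent McSC replicate 2 left out there were 1 higher and 5 lower, with replicate 1 left out 5 lower, and with melanocyte replicate 2 left out 2 higher. The activin and inhibin subunit genes moved in both directions, with 1 higher and 2 lower of 3 tested (median -1.46). Inhbb read 18.8 and 30.9 CPM in quiescent McSC, against 6.86, 2.05 and 4.01 CPM in melanocytes (2.54 ± 0.51 SE, edgeR adjusted p = 0.00688). Inhba, the subunit of activin A, read 0.642 and 0.0982 CPM in quiescent McSC, against 44.1, 3.39 and 3.15 CPM in melanocytes (-5.60 ± 1.72), with its highest value in melanocyte replicate 1, without which the log2 fold change was -3.22. Inha, the inhibin alpha subunit, read 3.51 and 4.70 CPM, against 15.8, 7.90 and 10.2 CPM (-1.46 ± 0.36). Without quiescent McSC replicate 2 none of these 3 was called (adjusted p = 0.0516, 0.161 and 0.0568 for Inhbb, Inhba and Inha), and without replicate 1 neither Inhba (0.0838) nor Inha (0.102) was.

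Of 17 antagonist genes 16 were tested, with 3 higher and 8 lower (median -1.26). Fstl1, a secreted follistatin relative, stood at 15.1 ± 7.97 CPM in quiescent McSC, against 278 ± 150 CPM in melanocytes. Chrdl1, a chordin relative, read 0.0946 ± 0.0430 against 2.31 ± 1.16 CPM, and the secreted protease Htra1 read 36.3 ± 5.06 against 79.5 ± 3.92 CPM. With quiescent McSC replicate 2 left out there were 0 higher and 5 lower, and 1 was higher when quiescent McSC replicate 1, or melanocyte replicate 2, was left out. The fibroblast and dermal papilla markers were lower in the same libraries (53.1 to 74.0 against 2036 to 5715 CPM), and their part in these counts was not tested.

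Inside the cell, 8 of the 16 SMADs and SMAD regulators were higher in quiescent McSC and 4 lower (median 0.37). Ski, a SMAD co-repressor, stood at 357 ± 38.9 CPM in quiescent McSC, against 157 ± 8.61 CPM in melanocytes, and Zfyve16 (endofin), which anchors SMADs at endosomes, at 55.4 ± 7.80 against 24.9 ± 1.36 CPM. The inhibitory SMAD gene Smad7 was lower, at 24.3 ± 1.79 against 77.6 ± 9.80 CPM. With quiescent McSC replicate 1 left out 5 were higher and 2 lower, and with replicate 2 left out 4 and 2. Of 14 BMP target genes 4 were higher and 8 lower (median -1.35), with Msx1 at 0.984 ± 0.786 against 93.4 ± 19.6 CPM and Msx2 at 4.39 ± 1.87 against 218 ± 18.1 CPM. The Id genes were split: Id3 (log2 fold change 0.86 ± 0.24 SE) and Id4 (0.91 ± 0.21) were higher. Id1 was lower (-1.03 ± 0.18) and Id2 was not called (-0.84 ± 0.33). Smad6 and Smad7, both lower, are counted among the targets and among the SMADs. Bambi, not called, is counted among the targets and among the other receptors and co-receptors. Msx2 also stands in the hair follicle marker list, which summed to 23.4 to 73.8 CPM in quiescent McSC and 3934 to 5445 CPM in melanocytes. With quiescent McSC replicate 2 left out 0 targets were higher, and with melanocyte replicate 3 left out 2 were.

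**Figure D5:**
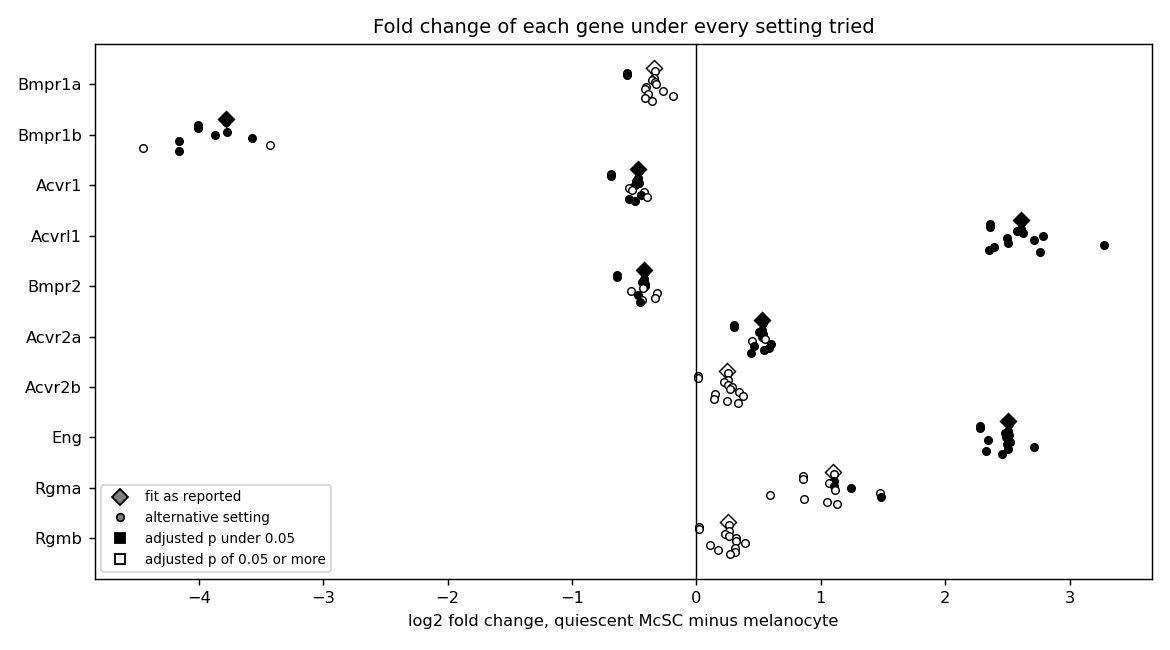
Log2 fold change (horizontal axis, quiescent McSC minus melanocyte) of each gene in the fit as reported (diamonds) and under each alternative in which it was tested (circles), filled where the adjusted p was under 0.05. Every point of Eng and Acvrl1 is filled, whereas Acvr1, Bmpr2, Bmpr1b and Acvr2a each have open points, and no gene changes sign. No call is drawn from the filled points of Bmpr1b.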

How the data were processed

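Per the labels, RNA came from sorted cells, and libraries were made with an Illumina mRNA kit, with no word on strand. The authors deposited whole-number counts for each gene in each library, which were read as raw. The submitters' processing notes name STAR 2.5.2a, Salmon 0.8.2 and mm10 without their roles, and the program that counted reads and its gene models are not stated. Of 24100 Entrez identifiers, 24045 matched a RefSeq symbol (GRCm38.p6, the build of mm10).

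Genes were filtered (filterByExpr), TMM-normalized and tested with edgeR's quasi-likelihood method (two-sided; edgeR 4.0.16, R 4.3.3), without covariates, with Benjamini-Hochberg adjustment over all 16953 tested genes and a threshold of 0.05. Log2 fold changes are quiescent McSC minus melanocyte, and SEs derive from the fold change and F statistic. The procedure was tested on simulated counts. CPM are mean ± SD. Binomial intervals and floors (3 counts) cover only counting error, because PCR copies of one molecule cannot be recognized. Shares of a class use counts. Exon lengths and overlaps come from GENCODE M21.

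Alternatives were RLE size factors, library size only, library size without the 20 most abundant genes, no filter, at least 5 CPM in 2 libraries, DESeq2 1.42.0, limma-voom (limma 3.58.1), a replicate block, leaving out each library, and, added after the data were seen, thinning to the shallowest total. The members and lists were chosen with earlier results of these data known. Named genes were all 10 members, up to 3 called genes of smallest p in each pathway list, and genes near in pattern. The latter were the 3 nearest to the member of smallest p in each direction (Eng and Bmpr1b). For Bmpr1b they are a description only. Other named genes were chosen after their values were seen. Each library is a pool of animals called a biological replicate in the labels.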

Additional observations from a re-analysis of the deposited data

How the results depend on the processing

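No log2 fold change of the 10 genes reversed in the 136 alternative values computed, 14 for each gene except Bmpr1b, which had 10. The 3 genes higher in quiescent McSC were 2 under a replicate block and without quiescent McSC replicate 1, and 4 with no filter, with DESeq2, with limma-voom and without melanocyte replicate 1. With Bmpr1b left aside, the lower calls of Acvr1 and Bmpr2 were both lost with the replicate block. Both were also lost without either quiescent McSC library or without melanocyte replicate 2, and that of Bmpr2 without melanocyte replicate 3. The calls lost under the replicate block were Acvr2a (adjusted p = 0.060), Acvr1 (0.0568) and Bmpr2 (0.151). Replicate numbers are shared by 2 pairs only, whose deviations from the group means correlated at 0.04 and -0.06. With only 2 quiescent McSC libraries, whose deviations mirror each other, these correlations cannot decide whether the numbers pair the libraries. Melanocyte replicate 3 has no weight under the replicate block. The calls over all genes went from 9385 to 7409 with the block, and lay between 6265 and 10005 without 1 library. With library size only, 36.3% of all calls were higher in quiescent McSC, against 47.4% as reported, and Acvr2a stood at 0.30 and Bmpr2 at -0.64 (0.56 and -0.38 relative to the median of all genes). For pathway lists, the higher and lower counts depended on single libraries. Without 1 library, ligands ranged from 1 to 4 higher and 5 to 11 lower, activin and inhibin subunits from 0 to 1 and 0 to 2, antagonists from 0 to 4 and 5 to 8, other receptors from 1 to 3 higher, SMADs and regulators from 4 to 8 and 2 to 4, and targets from 0 to 4 higher. The stricter filter left fewer genes to test: 7 ligands (17 as reported), 2 activin and inhibin subunits (3), 8 antagonists (16) and 6 other receptors (9). Of these, 1 ligand was called higher, 1 subunit lower, 4 antagonists lower and 0 other receptors higher. A gene no longer tested cannot be called. With the replicate block 2 ligands and 1 other receptor were higher and 2 SMADs and regulators lower. Under either library size setting 1 other receptor and 2 targets were higher, and under limma-voom 1 activin subunit was lower; the cause was not tested. Divided by length, the difference in class share was 12.5 percentage points for Acvrl1 (9.22 by counts) and 8.59 for Acvr2a (9.73). Of 309 recomputed values of the 23 other named genes, 0 reversed and 11, in 6 genes, lost their call. With only 2 quiescent McSC libraries, leaving 1 out assumes that the other varies like the melanocytes. The shallowest library limits genes such as Bmpr1b, which had 2 counts there, to values near the floor of 0.160 CPM.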
